A study of Homo sapiens with 2 samples.

Results

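The start sites of 3 genes tied to the zinc-finger transcription factor ZNF143 were examined in H3K4me3 peak lists from HEC-1-B, an established human endometrial (uterine) adenocarcinoma cell line. ZNF76 is the paralog of ZNF143, and THAP11 and HCFC1 act with ZNF143 at promoters. The genes were chosen for this relation and not for their values, but with earlier results of these data known. A called region was assigned to a gene when it lay within 3 kb of the gene's start site on the hg19 build, at 35227491 on chromosome 6 for ZNF76, at 153236819 on chromosome X for HCFC1 and at 67876213 on chromosome 16 for THAP11. This gave 5 of 20567 regions in the wild-type list and 3 of 20509 in the ZNF143 knockout list.

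The data comprised 1 chromatin immunoprecipitation sequencing (ChIP-seq) library of wild-type HEC-1-B cells and 1 of ZNF143 knockout cells of the same line, both made with the same H3K4me3 antibody. The labels give no treatment, and they do not say whether the knockout cells are 1 clone or a pool. With 1 library per genotype no difference has a replicate check and no test between genotypes was made. Neither the knockout nor the tissue of origin was checked here, because hg19 start sites of ZNF143 and of endometrial marker genes were not used.

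H3K4me3, trimethylation of lysine 4 of histone H3, marks nucleosomes around the start sites of active genes and is usually depleted at the nucleosome-poor start site itself. ZNF143 binds a promoter motif through its zinc fingers, and ZNF76 carries a closely related zinc-finger domain that recognises the same motif. THAP11, also called Ronin, binds DNA through a THAP domain and recruits HCFC1, host cell factor C1, a scaffold without a DNA-binding domain of its own that links transcription factors to histone-modifying enzymes, among them H3K4 methyltransferase complexes.

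The promoter letters come from the RefSeq promoter table of the GRCh38.p14 build. They are shown for THAP11 because the table matched by symbol only this 1 of the 3 genes. THAP11 also shifted most of the 3 in rank by fold and by −log10 q, and its promoter holds a ZNF143-type motif. The promoters of ZNF76 and HCFC1 were not searched, and a link between motif and shift was not tested. The stretch is the 250 bases before the start on the plus strand, chr16:67842070-67842319 on GRCh38.p14, written 5′ to 3′, with the motif match in capitals. It is the reference sequence and was not read from these cells.
THAP11 promoter: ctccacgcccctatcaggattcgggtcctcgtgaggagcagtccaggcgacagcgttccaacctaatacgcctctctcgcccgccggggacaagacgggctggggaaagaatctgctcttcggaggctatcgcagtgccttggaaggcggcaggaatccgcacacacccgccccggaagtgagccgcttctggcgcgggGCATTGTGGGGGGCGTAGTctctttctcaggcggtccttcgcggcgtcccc

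The capitals match a 19-letter form of the motif known for ZNF143 and THAP11, made of ACTAC, any 4 bases, CCCA, any 2 bases and ATGC. The match lies on the strand opposite to the gene, from 51 to 33 bases before the start. Read on that strand it is ACTACGCCCCCCACAATGC. The search covered both strands of the 300-base windows (250 bases before to 50 after the start) and used 3 patterns, chosen after this sequence was seen. The 19-letter pattern occurred in 0.299% of the 35116 promoters of the table. Its inner part, CCCA, any 2 bases and ATGC, which overlaps the same match, occurred in 1.73% of promoters, THAP11 among them. The arm ACTACAA, whose first 5 letters are also those of the longer pattern, occurred in 2.77%, and its letters are not in the THAP11 window. The 300-base window of THAP11 held 69% G and C, against a median of 58.7% over all promoters, and 34 CG dinucleotides against a median of 14. Of 18 other genes, namely ZNF143 itself and genes that work with it, its paralog or its partners, 14 had an entry. The 19-letter pattern was in 0 of these, and the inner part was in 2, HCFC2 (a paralog of HCFC1) and GABPA (a DNA-binding ETS factor).

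All 3 start sites lay inside a called H3K4me3 region in both genotypes. Across the assembled chromosomes (1 to 22, X and Y), 94.5% of wild-type regions overlapped a knockout region, and 90.3% of knockout regions overlapped a wild-type region. A region called in both lists at 3 of 3 sites is thus close to this background of shared regions. The share of all gene start sites that lie inside a region was not computed. At each gene the region of highest fold is called its leading region. The fold is the authors' ratio of the fragments stacked at a region's summit to a local background rate. That fold, the −log10 q-value (both the authors' own) and the pileup (the number of stacked fragments, recovered from the authors' fold and p-value) were used as ranks within each list, because the sources used here name no scaling that would put both lists on one scale. The median pileup was 197 fragments for wild-type and 355 for knockout regions, which makes the knockout library the deeper one on this scale.

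ZNF76 had the strongest region of the 3 genes in both lists. In the wild-type list the mark formed a pair of regions on either side of the stretch just before the start. The upstream region ran from 35226488 to 35227252 on chromosome 6 (765 bp, fold 10.7, −log10 q 241, pileup 374). The downstream region ran from 35227457 to 35228252 and held the start site (796 bp, fold 15.1, −log10 q 411, pileup 526). A valley of 204 bp separated them, and the downstream region began 34 bp before the start. In the knockout list a single region of 1858 bp ran from 35226456 to 35228313, with a fold of 13.9, a −log10 q of 765 and a pileup of 1029. It took in both wild-type regions and the valley, and reached 32 bp and 61 bp beyond their outer edges.

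HCFC1, transcribed from the minus strand, also had a pair of wild-type regions, but its valley lay farther upstream and the region over the start covered both sides of it. In the wild-type list, the region over the start ran from 153236055 to 153237530 on chromosome X (1476 bp, fold 7.38, −log10 q 152, pileup 304). A weaker region began 877 bp upstream of the start and ran from 153237696 to 153238876 (1181 bp, fold 3.80, −log10 q 40.8, pileup 156). In the GRCh38.p14 gene table, ordered by start coordinate, the next protein-coding gene on this upstream side is TMEM187. It is a predicted membrane protein gene, and its hg19 start was not placed. The 2 regions were 165 bp apart. The knockout list held 1 region of 2857 bp from 153236030 to 153238886, with a fold of 6.94, a −log10 q of 278 and a pileup of 589. The wild-type summit lay 318 bp inside the gene and the knockout summit 118 bp upstream of the start, a distance of 436 bp between them.

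THAP11 had the narrowest region of the 3 in both lists, with no second region within the window. The wild-type region ran from 67875923 to 67876484 on chromosome 16 (562 bp), with a fold of 7.06, a −log10 q of 131 and a pileup of 272. The knockout region ran from 67875913 to 67876584 (672 bp), with a fold of 9.54, a −log10 q of 414 and a pileup of 696. Of its added length, 10 bp lay on the upstream side and 100 bp on the downstream side, within the gene. The summits lay 120 bp and 84 bp downstream of the start, in the wild-type and knockout lists.

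**Figure D1:**
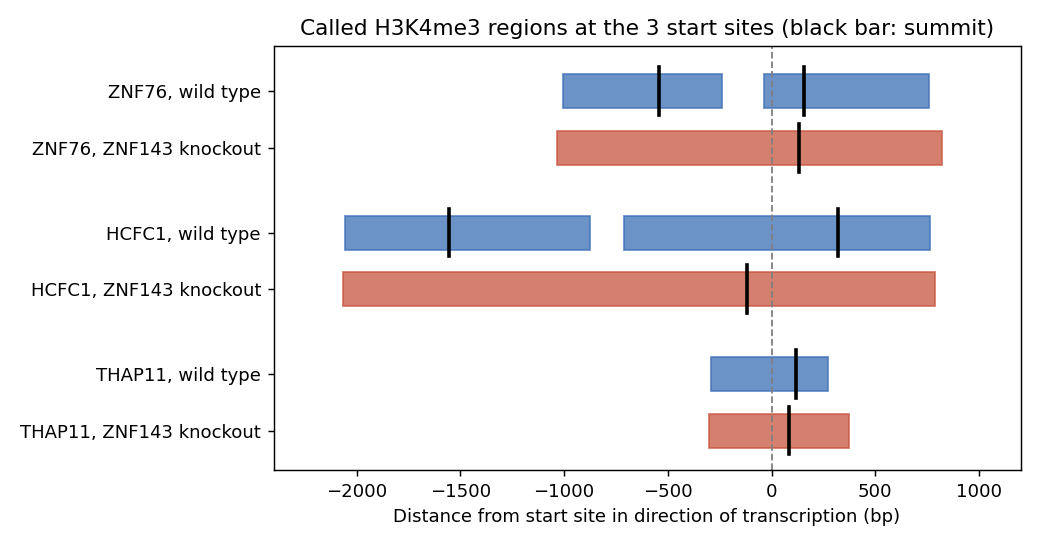
Called H3K4me3 regions (boxes) and their summits (black bars) at the start sites of ZNF76, HCFC1 and THAP11, by distance from the start in bp along the direction of transcription. The pairs of wild-type regions at ZNF76 and HCFC1 are each 1 region in the knockout list, and THAP11 has 1 region in both.

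The window of 3 kb decided little. The outermost region inside it was the upstream wild-type region of HCFC1, at 877 bp with a fold of 3.80. The nearest region outside it was 3930 bp downstream of the THAP11 start in the wild-type list, with a fold of 11.0 (4109 bp and 10.5 in the knockout list). At ZNF76 and HCFC1 the next regions were at least 36.3 kb away in both lists.

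Region joining, seen at 2 of the 3 genes, was set against all wild-type valleys. Of the knockout regions shared with the wild-type list, 5.83% spanned 2 or more wild-type regions. In the reverse direction, 0.583% of shared wild-type regions spanned 2 or more knockout regions. Among 3365 wild-type valleys under 1 kb, 1051 (31.2%, exact Clopper-Pearson 95% interval 29.7 to 32.8%) were spanned by a knockout region. The share depended on the width of the valley. It was 83.6% (79.2 to 87.4%) of the 335 valleys of 163 to 174 bp, the class of the HCFC1 valley, and 29.8% (26.8 to 33.0%) of the 859 valleys of 200 to 249 bp, the class of the ZNF76 valley. These intervals cover counting error only.

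The lists also differed in the smallest valley they hold, 163 bp for wild type and 175 bp for the knockout. The HCFC1 valley of 165 bp is thus narrower than any valley of the knockout list, and the ZNF76 valley of 204 bp is not. The part of depth and of peak-caller settings in the joining was not tested. From outer edge to outer edge, the knockout stretch was 1.05 times the wild-type stretch at ZNF76 (1858 against 1765 bp) and 1.01 times at HCFC1 (2857 against 2822 bp). At THAP11 it was 1.20 times. Over 16501 one-to-one pairs, meaning regions with exactly 1 overlapping partner in each direction, the median width ratio was 1.06 (quartiles 1.02 and 1.16), and the knockout region was the wider in 82.2%. The stretch ratios of ZNF76 and HCFC1 were therefore below the median pair (44.3 and 22.5 percentile) and that of THAP11 above it (79.3 percentile).

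By −log10 q and by pileup, ZNF76 lay high in both lists. Its leading region stood at the 72.6 percentile by fold in the wild-type list (interval 65.0 to 79.5) and at 67.6 in the knockout list (62.2 to 73.2). By −log10 q it stood at 94.4 and 95.1, and by pileup at 94.7 and 95.9. By width its leading region moved from the 43.5 to the 93.6 percentile, since the knockout region joined the pair. Each interval carries the exact Poisson 95% interval of the pileup into the rank at a fixed local rate, and covers counting error only. The shift in fold percentile was −5.01 points (−13.8 to 4.43), and that by −log10 q was 0.73 points (−3.23 to 5.92). Both intervals include 0, so no shift by fold or −log10 q was detectable at this depth.

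By fold and by −log10 q, HCFC1 held nearly the same place in both lists. It stood at the 26.6 percentile by fold in the wild-type list (22.3 to 31.2) and at 26.1 in the knockout list (23.8 to 28.7), a shift of −0.52 points (−5.59 to 4.49). By −log10 q it stood at 53.7 and 54.7, a shift of 0.98 points (−6.40 to 7.59). By width its region moved from the 86.2 to the 99.9 percentile, since the knockout region joined the pair. The fold of HCFC1 was low in both lists although its pileup stood at the 65.4 and 68.4 percentile. Its local background rate was 40.3 fragments per base for wild type and 84.0 for the knockout, the highest of the 3 leading regions in each.

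THAP11 ranked higher in the knockout list by each measure of strength. By fold it stood at the 24.9 percentile in the wild-type list (21.3 to 30.0) and at 38.9 in the knockout list (35.1 to 43.6), a shift of 14.1 points (7.70 to 19.9). By −log10 q it stood at 50.3 and 69.1, a shift of 18.8 points (11.0 to 26.1), and by pileup at 60.4 and 78.3. The intervals of both shifts exclude 0, for counting error alone. By width THAP11 hardly moved, from the 29.3 to the 30.0 percentile. The measures of strength are not independent of each other, since the pileup was recovered from the fold and p-value.

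**Figure D2:**
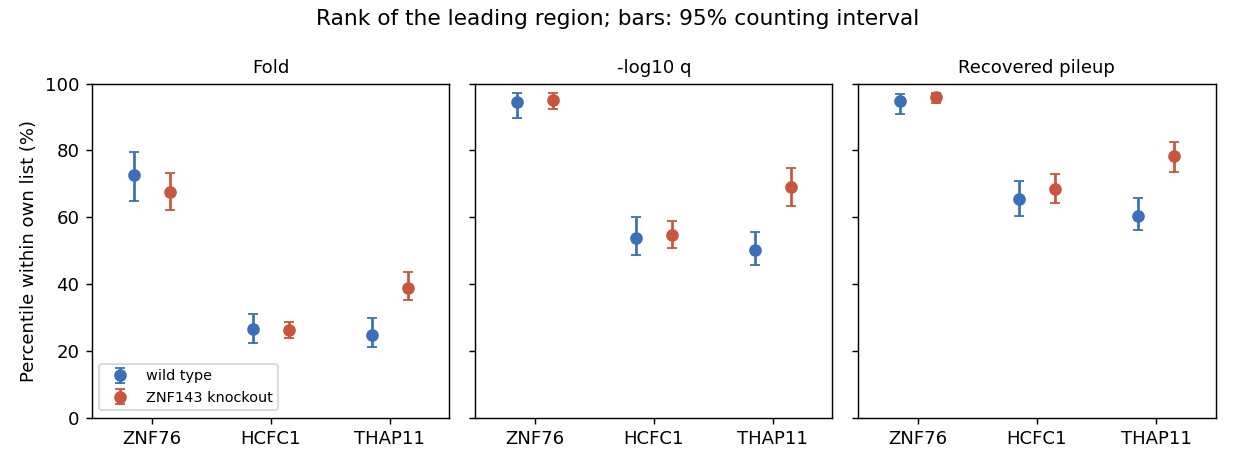
Percentile of each gene's leading region within its own list (y axis, %), by fold, −log10 q and recovered pileup, for the wild-type and knockout libraries. Bars are 95% counting intervals. Those of the 2 genotypes overlap for ZNF76 and HCFC1, and for THAP11 they do not (by fold, 21.3 to 30.0 against 35.1 to 43.6).

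The order of the genes changed with this shift. In the wild-type list the leading regions ranked ZNF76, HCFC1, THAP11 by fold, by −log10 q and by pileup, and the intervals of HCFC1 and THAP11 overlapped. In the knockout list they ranked ZNF76, THAP11, HCFC1 by the same 3 measures. There the fold intervals of THAP11 (35.1 to 43.6) and HCFC1 (23.8 to 28.7) did not overlap. By width the order was HCFC1, ZNF76, THAP11 in both lists.

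The shifts were read against the one-to-one pairs, whose median shift was −0.0070 points by fold (quartiles −4.07 and 3.69) and 0.74 points by −log10 q (−3.14 and 4.95). Pairs that rose by over 10 points made up 8.9% by fold and 8.98% by −log10 q, and pairs that fell by over 10 points 9.44% and 6.07%. Of the 3 genes, 1 rose by more than 10 points by either measure and 0 fell. THAP11 stood at the 94.8 percentile of all pairs by its fold shift and at 98.5 by its −log10 q shift, so 5.19% and 1.50% of pairs rose further. ZNF76 stood at the 21.2 and 49.9 percentile of these shifts, and HCFC1 at 45.5 and 51.6. ZNF76 and HCFC1 are not themselves one-to-one pairs. Among all 17637 clusters of overlapping regions, which include them, the 6 percentiles differed from these by less than 1 point. Percentile shifts have a ceiling. THAP11 began at the 24.9 percentile by fold and 50.3 by −log10 q, while pairs that began near the top could not rise as far. The pileup ratio of knockout to wild type has no such ceiling, and by it 10.1% of the one-to-one pairs were higher than THAP11.

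**Figure D3:**
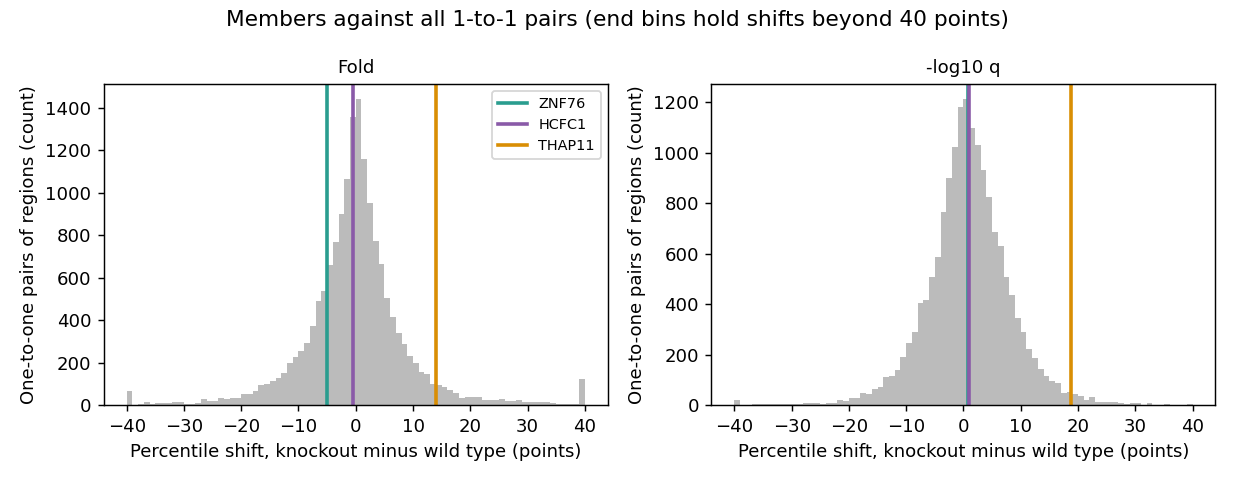
Percentile shift, knockout minus wild type in points (x axis), of the one-to-one pairs (grey, count of pairs on the y axis), by fold and by −log10 q, with the 3 genes as lines. THAP11 lies in the upper tail, at 14.1 and 18.8 points, and HCFC1 near the centre in both panels.

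The fold joins a summit pileup and a local background rate, which moved differently at the 3 genes. At THAP11 the pileup was 2.56 times higher in the knockout library and the local rate 1.91 times higher. At ZNF76 the corresponding ratios were 1.96 and 2.15, and at HCFC1 1.94 and 2.08. Over the one-to-one pairs the median ratios were 1.86 for the pileup and 2.04 for the rate. THAP11 thus combined a pileup ratio above the median with a rate ratio below it.

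Centred on the median of all pairs, the log2 pileup ratio was 0.46 at THAP11 (exact binomial 95% interval 0.26 to 0.67), 0.07 at ZNF76 (−0.08 to 0.23) and 0.06 at HCFC1 (−0.14 to 0.26). Scaled to the lowest local rate of each library in place of the median pair, these values were 0.15 (−0.06 to 0.35), −0.24 (−0.40 to −0.09) and −0.26 (−0.46 to −0.05). THAP11 stayed the highest, but its interval then included 0, and the signs at ZNF76 and HCFC1 turned. Chromosome 16 as a whole was raised on this scale, with a median of 0.17 over its 745 pairs and of 0.16 over the 101 pairs within 5 Mb of THAP11. Relative to those 101 pairs, the THAP11 ratio was 0.30, and 12.9% of them were higher. By fold shift, 2.97% of the same pairs were higher, and by −log10 q shift 1.98%. Chromosome 16 was raised by −log10 q too. Its median shift was 4.16 points, and 3.76 within 5 Mb of THAP11, against 0.74 over all pairs. THAP11 was 14.7 points above the chromosome median and 15.1 above the median within 5 Mb. By log2 pileup ratio, the pairs within 5 Mb of ZNF76 (140) and of HCFC1 (77) each had a centred median of 0.08. Both genes lay within 0.02 of their surroundings.

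The regions closest to each start placed the THAP11 value in its setting. Within 100 kb of THAP11 there were 6 other shared stretches. Their fold shifts ran from −10.9 to 1.98 points with a median of −1.87, their −log10 q shifts from −8.59 to 2.02 points, and their centred log2 pileup ratios from −0.29 to 0.27. All 6 lay below THAP11 on each of these scales. By −log10 q this was fixed in advance, since they began at the 84.1 to 99.5 percentile and could not rise by 18.8 points. By fold, those that began at the 91.1, 95.2 and 97.9 percentile could not rise by 14.1 points. The pileup ratio has no such ceiling, but its highest neighbour value, 0.27, lay inside the counting interval of THAP11 (0.26 to 0.67). By it, THAP11 was thus not separated from that neighbour. The nearest on either side lay 8.54 kb upstream and 5.05 kb downstream by summit. Their folds went from 24.1 and 11.0 in the wild-type list to 21.2 and 10.5 in the knockout list. The fold of THAP11 went from 7.06 to 9.54. Folds of the 2 lists were not put on a common scale, and by other measures the upstream region did not fall. Its −log10 q shift was 2.02 points and its centred log2 pileup ratio 0.27. Those of the downstream region were −0.048 points and −0.018. The GRCh38.p14 gene table was ordered by start coordinate, without regard to gene ends, so overlap of genes was not examined. On either side of THAP11 in this order are CENPT, a kinetochore protein gene, and NUTF2, a nuclear transport factor gene. The neighbouring regions were not assigned to these genes.

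Around HCFC1, 5 of the 6 other stretches within 100 kb had a higher fold shift than the gene, and they ranged from −7.35 to 5.07 points. Around ZNF76 there were 3, with fold shifts of −0.0086, 8.63 and 31.7 points, all above that of ZNF76. The one with 31.7 points was a weak region 45.5 kb upstream, with a pileup of 28 wild-type and 108 knockout fragments. By fold shift, HCFC1 thus lay within the range of its neighbours, and ZNF76 below that of its 3.

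**Figure D4:**
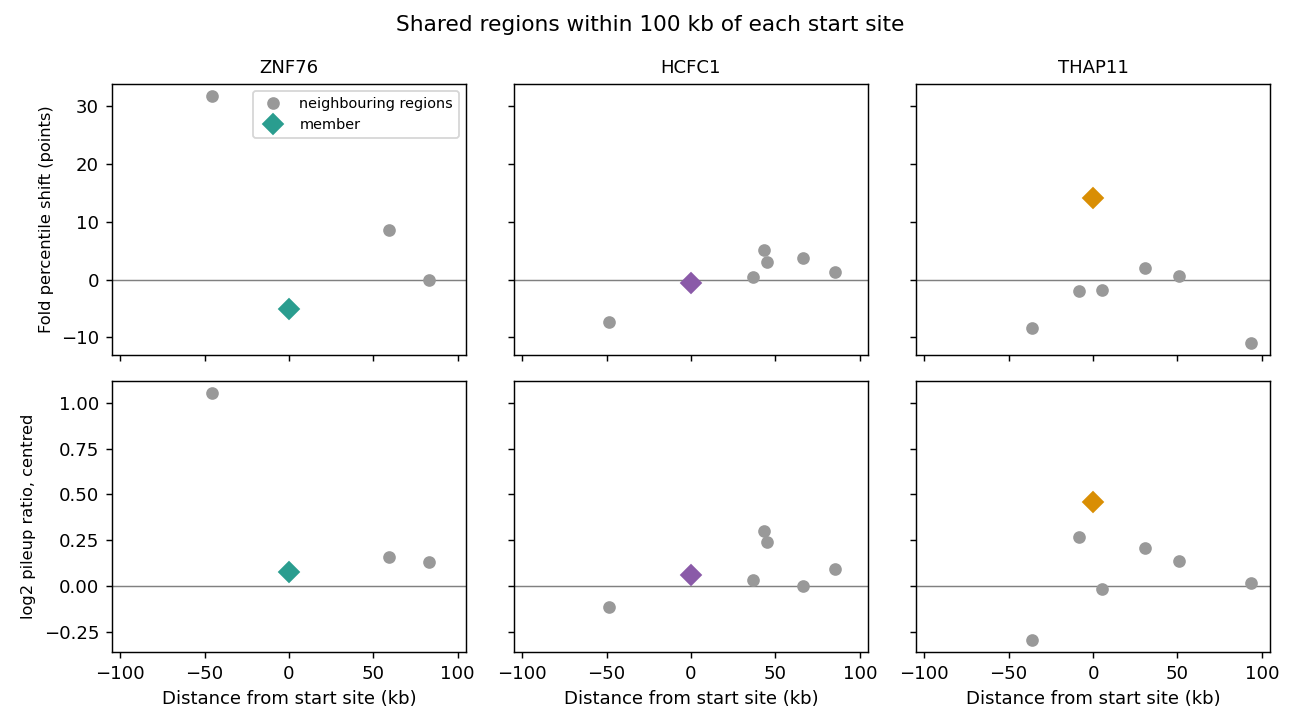
Shared regions within 100 kb of each start site (grey) and the gene's own leading region (coloured), by distance from the start in kb along the direction of transcription. The upper row gives the fold percentile shift in points and the lower row the log2 pileup ratio centred on all pairs. THAP11, at 14.1 and 0.46, lies above its 6 neighbours in both. Neighbours that began near the top of the wild-type list had little room to rise in the upper row. In the lower row the highest neighbour of THAP11, at 0.27, lies inside the counting interval of THAP11 (0.26 to 0.67).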

How the data were processed

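H3K4me3 ChIP-seq peak lists of 1 wild-type and 1 ZNF143 knockout library were used, with groups taken from the genotype labels. The submitters' processing notes name Bowtie2, MACS2, SAMtools 1.12, deepTools and the builds GRCh37 and hg19, without settings or a control library. The lists have the 10-column layout of narrowPeak files and a separate name prefix each. Column 7 was taken as the authors' fold ratio, column 8 as the deposited −log10 p-value and column 9 as the deposited −log10 q-value. The deposited score column was not used. The start sites came with the choice of genes. The genes, lists and measures were chosen with earlier results of these data known.

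Pileups and local rates were solved from the fold, taken as pileup plus 1 over rate plus 1, and the Poisson upper tail of column 8. Tested on simulated data made from each list (16842 regions for wild type, 16617 for the knockout), this recovered 100% of the pileups. The simulation used the same formulas, so it tested the solving step and not whether the deposited columns follow them. Percentiles are over the 19782 wild-type and 19647 knockout regions on assembled chromosomes, with ties averaged. Intervals for −log10 q ranks were taken from −log10 p, and those of a shift combine both libraries' intervals. Overlap means at least 1 bp. Fragments are not independent molecules where PCR copies were kept. Total reads were not used here. The genes named were the 3 chosen, those of a fixed list whose promoter held a searched pattern, and neighbours from the GRCh38.p14 gene table. The fixed list held 18 genes, ZNF143 and partner genes. Neither the list nor the neighbours were placed on hg19 positions. The computations used scipy 1.17.1, numpy 2.4.6 and pandas 2.3.3 under Python 3.11.15, and figures were drawn with matplotlib 3.10.9.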

Additional observations from a re-analysis of the deposited data

How the results depend on the processing

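No paired analysis was possible because there was a single library per genotype, nor could a replicate be left out. Of 106 values under alternatives, 101 stayed within the counting interval of the value reported or, for widths and presence, did not change. Many of the 101 could not differ. The 1-kb window, the region over the start and the region nearest it picked the same leading regions, and the q filter cannot alter their widths or pileups. Staying within the interval also allowed a change of sign, as for the HCFC1 fold shift (−3.25 to 1.15 points). The 5 values that moved were as follows. After merging regions within 1 kb, the width ratio of knockout to wild type became 1.05 at ZNF76, from 2.33 between leading regions, and 1.01 at HCFC1, from 1.94, because the wild-type pairs were joined. Scaled to the lowest local rate of each library in place of the median of all pairs, the log2 pileup ratio became 0.15 at THAP11, −0.24 at ZNF76 and −0.26 at HCFC1, so the signs at ZNF76 and HCFC1 rest on the centring. So does the distance of THAP11 from 0, since its interval on this scale was −0.06 to 0.35. The fold shift of THAP11 ran from 11.8 to 14.7 points over all settings of windows, filters, merging and ranking that gave a value, and its −log10 q shift from 18.4 to 20.9. Less the median of the pairs or clusters it was compared with, the −log10 q shift of THAP11 ran from 14.7 to 18.1 points. Neither THAP11 nor HCFC1 was among the upper 50% of either list by fold, so the equal lists gave no value for them. The ranking over shared regions and the comparison with clusters were chosen after seeing the data. Counting error limits what these libraries show. In the log2 pileup ratio of THAP11, the 272 wild-type fragments set the width of the interval more than the 696 knockout fragments.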
